A study of Mus musculus with 9 samples.

Results

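Serum fragments of transfer RNAs were compared between mice on a high fat diet with SalB and mice on the high fat diet alone. SalB is salvianolic acid B, a plant phenol from danshen root. The comparison takes 6 of the 9 libraries of a study of atherosclerosis: 3 labelled high fat diet and 3 labelled high fat diet with SalB, chosen by their treatment labels. All 6 are total RNA of blood serum at week 20 and carry the same disease label, atherosclerosis. The sources used here do not give the strain, the genotype, the age at the start, the dose and route of SalB, or whether a library is 1 animal or a pool. Since nothing says that replicates are separate animals, the p-values reflect the spread of these libraries alone, and part of it may be technical.

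Reads on tRNA references numbered 28191 to 55465 per high fat diet library and 40134 to 156333 per SalB library. Reads on the precursor of Leu-CAG-3-1 were left out before scaling. They made up 42.0% of tRNA reads in SalB replicate 2 and 2.55% in SalB replicate 1, against 0.0177% to 0.0573% in the other 4 libraries. The reads used numbered 55452, 28186 and 44406 on the diet alone and 60668, 90621 and 40111 with SalB. From the ranks in the read names, these reads were at most 2.81% to 3.52% of a whole high fat diet library, and at most 2.27%, 0.991% and 3.00% of SalB replicates 1, 2 and 3. SalB replicate 2 stood apart in depth and in its 5′ fragments. Across the tested fragments, which are not independent replicates, rank correlations were 0.843 to 0.863 among the high fat diet libraries, 0.677 to 0.745 among the SalB libraries and 0.234 to 0.380 between the groups.

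A tRNA is made as a longer precursor. Its leader and trailer are cut away and the tail CCA is added to its 3′ end before an amino acid can be attached there. Cuts in the anticodon loop give long 5′ and 3′ pieces, cuts in the D loop and the T loop give shorter ones, and all of these circulate in blood, where long 5′ pieces of Gly-GCC and Glu-CTC are known as abundant forms. Mitochondria encode their own tRNAs, most of them between the genes of a long transcript from the heavy strand promoters.

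The sequences on which the results turn were the following, written 5′ to 3′ as DNA letters and taken from the deposited alignments. The first set holds fragments that were higher with SalB. They are shown because they include long pieces that run from the anticodon arm towards the 3′ end, and a mitochondrial 5′ piece. They also include trailers, here reads past the end of a tRNA on a precursor reference. The mt-His-GTG form that lacks the tail is given for comparison. Capitals mark the CCA tail or, in the Arg-ACG trailers, the closing run of T.
mt-His-GTG, bases 32 to 71: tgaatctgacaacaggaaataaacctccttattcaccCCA
mt-His-GTG, bases 32 to 68, before the tail: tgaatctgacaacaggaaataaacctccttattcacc
Phe-GAA, bases 38 to 76: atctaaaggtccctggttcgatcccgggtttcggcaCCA
Trp-CCA, bases 38 to 69: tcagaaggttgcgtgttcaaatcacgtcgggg
mt-Ser-GCT, bases 1 to 19: aagaaagattgcaagaact
Arg-ACG trailer, 22 bases: ttgggactggtactcctttaTT
Arg-ACG trailer, 23 bases: ttgggactggtactcctttaTTT
mt-Val-TAC trailer: actaatcctagccctagccctaca
The second set holds short 3′ fragments that were lower with SalB, shown to compare their starts. Capitals mark the CCA tail, and in the pair from Gly-CCC/Gly-GCC the base at the T-loop A.
Ala-AGC, bases 58 to 75: tccccagcatctccaCCA
Ala-CGC/Ala-TGC, bases 58 to 75: tccccggcatctccaCCA
Gln-CTG, bases 59 to 75: tctcggtggaacctCCA
Tyr-GTA, bases 60 to 76: tccggctcgaaggaCCA
Gly-CCC/Gly-GCC, bases 53 to 74: tcgAttcccggccaatgcacca
Gly-CCC/Gly-GCC with A56T: tcgTttcccggccaatgcacca
The third set holds 5′ fragments that share a start and differ in their end, shown since their levels went apart, and a 5′ piece of Glu-CTC and an inner piece of His-GTG. Capitals mark the bases past base 25 of Gly-GCC and past base 15 of the Val fragment.
Gly-GCC, bases 1 to 25: gcattggtggttcagtggtagaatt
Gly-GCC, bases 1 to 31: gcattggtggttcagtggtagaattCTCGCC
Gly-GCC, bases 1 to 33: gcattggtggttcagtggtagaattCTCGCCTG
Gly-ACC/Val-AAC/Val-CAC, bases 1 to 15: gtttccgtagtgtag
Val-AAC/Val-CAC, bases 1 to 23: gtttccgtagtgtagTGGTTATC
Glu-CTC, bases 1 to 26: tccctggtggtctagtggttaggatt
His-GTG, bases 17 to 33: ggttagtactctgcgtt
A name with a stroke is a read that aligns to each of those families, positions count from base 1 of the reference, and a token such as A56T names the reference base, then the position, then what was read.

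Mitochondrial tRNAs, trailers and long reads took larger shares of the tRNA reads with SalB, and nuclear 3′ ends smaller ones. Mitochondrial tRNAs held 3.55%, 4.50% and 3.86% of reads on the diet alone and 18.7%, 15.2% and 18.5% with SalB (3.97 ± 0.487% and 17.5 ± 1.96%, SD, n = 3 each). Nuclear 3′ fragments, which reach the CCA tail, held 40.4%, 45.3% and 41.4% against 21.3%, 17.7% and 18.96%. Trailers of nuclear precursors stood at 4.03%, 4.51% and 4.29% and at 14.7%, 8.97% and 9.55%. In each of these 3 shares all SalB libraries lay beyond all high fat diet libraries. The longest reads, of 37 to 40 bases, held 2.25%, 2.37% and 2.13% on the diet alone and 12.9%, 7.14% and 13.1% with SalB. The rise in long reads largely repeats the mitochondrial one. With SalB, all reads of 40 bases held 9.54%, 5.03% and 8.19%, and the mitochondrial ones among them 9.15%, 4.80% and 7.81%. On the diet alone these were 0.729%, 0.749% and 0.842%, and 0.397%, 0.426% and 0.495%. Reads of 14 to 24 bases held 79.6% to 84.5% on the diet alone and 70.6% to 71.7% with SalB. The share of 5′ fragments (15.3%, 12.9% and 18.5% against 16.6%, 31.6% and 16.6%) and that of reads of 28 to 36 bases (10.9% to 16.2% against 11.9% to 15.9%) overlapped. Of 26 shares compared, 15 did not overlap between the groups. The exact two-sided permutation test of 3 libraries against 3 has 20 splits and cannot give less than 0.1, which each of these 15 reached, with an adjusted p of 0.173 at the smallest, so no share passed. These shares are relative to other tRNA reads in serum: a change in the number of cells that release a fragment and a change in the RNA released per cell cannot be told apart.

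**Figure D1:**
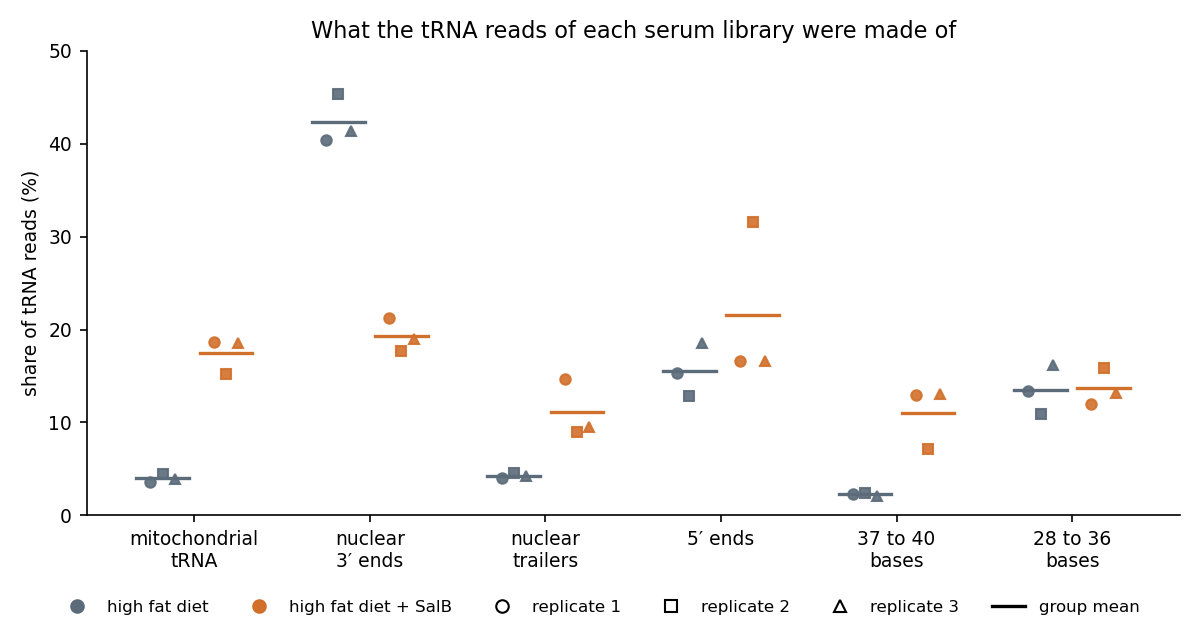
Share of tRNA reads (vertical axis, %) held by 6 kinds of fragment in each library; slate marks are high fat diet, orange marks high fat diet with SalB, symbols are replicates and bars are group means. Mitochondrial reads, nuclear trailers and reads of 37 to 40 bases lie higher in all 3 SalB libraries, nuclear 3′ ends lie lower, and 5′ ends and reads of 28 to 36 bases overlap. With SalB the mitochondrial and the longest reads are largely the same reads at 40 bases.

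Of 32655 distinct fragments 693 were abundant enough to test, and they held 63.5% of the reads. With limma-voom, a linear model of log2 levels fitted over all tested fragments, 259 passed at a Benjamini-Hochberg adjusted p under 0.05 (37.4% of those tested), 128 higher with SalB (18.5%) and 131 lower (18.9%). The libraries of the groups did not overlap for 360 fragments (51.9%), among them 253 of the 259 that passed. A level here is reads per 1000000 tRNA reads after scaling by trimmed means (TMM), and positive log2 fold changes are higher with SalB. Scaled to total reads instead, the median of all fragments moved from -0.03 to -0.39 on the log2 scale and the split to 98 higher and 179 lower. There 226 of the 259 calls were kept and 0 changed sign. Some fragments reached the filter on low reads in 1 group alone, and such a fragment had to differ in level: 54 in SalB libraries alone, of which 52 passed as higher, and 85 in high fat diet libraries alone, of which 57 passed as lower. Among the 554 at that level in libraries of both groups, 76 were higher and 74 lower, counts added after the data were seen. Without SalB replicate 2, 129 were higher and 126 lower, and 223 of the 259 calls were kept. Leaving out high fat diet replicate 1, 2 or 3 left 149, 160 and 170 calls.

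**Figure D2:**
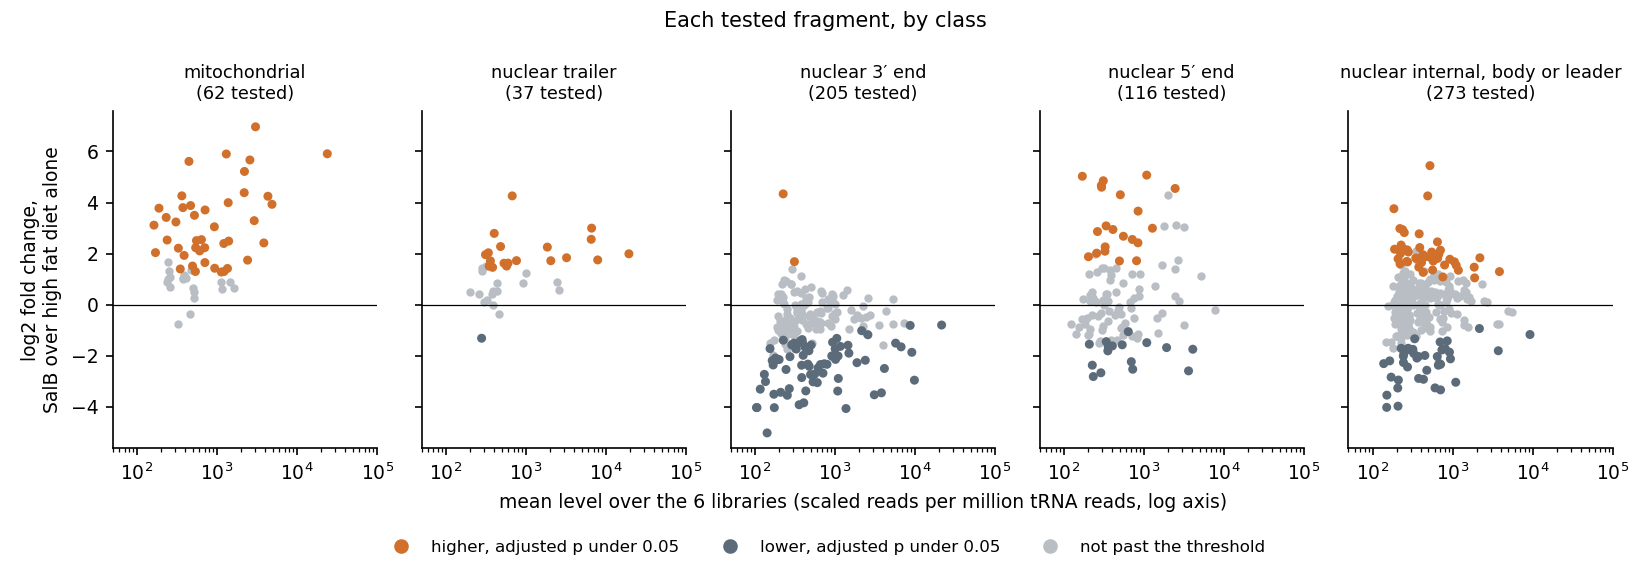
Log2 fold change with SalB against high fat diet alone (vertical axis) by mean level over the 6 libraries (horizontal log axis, scaled reads per 1000000 tRNA reads) for the 693 tested fragments in 5 classes; orange and dark points passed at an adjusted p under 0.05. The mitochondrial points that passed all lie above 0, as do 19 of the 20 nuclear trailer points that passed, and 73 of the 75 nuclear 3′ points that passed lie below 0.

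Most tested fragments of mitochondrial tRNAs from the heavy strand promoters rose: of 60, all from 3 tRNAs, 42 rose, 0 fell and 18 did not pass, beside 18.5% higher over all fragments. Of the 60, 17 reached the filter in SalB libraries alone. Of the other 43 fragments 25 rose and 0 fell. The log2 fold changes of these 43 had a median of 1.42, beside 0.04 over all fragments at the filter level in both groups. The 2 tested fragments of the other strand, both 5′ pieces of mt-Ser-TGA, were at -0.75 and -0.35 and did not pass. Most of these members are not independent: 18 are mt-His-GTG, 31 mt-Ser-GCT and 11 mt-Val-TAC, and many are end or mismatch variants of each other. All 11 of mt-Val-TAC lie past the end of the tRNA. On total reads 34 of the 60 rose and 0 fell.

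Summed over whole tRNAs, 14 of the 22 mitochondrial tRNAs had enough reads to test. Of the 80 tRNA families tested in all, 19 passed (23.8%), 8 higher (10%) and 11 lower (13.8%), and 4 of the 8 higher ones were mitochondrial. The tRNA of mitochondrial His-GTG (gene TrnH, GRCm38 chromosome MT, 11546 to 11612) had levels of 6371, 6003 and 6077 on the diet alone and 112494, 67094 and 107113 with SalB. Its log2 fold change was 3.88 (SE 0.32, limma-voom adjusted p = 0.000458), and SalB replicate 2 was the lowest of the SalB libraries. The neighbouring gene TrnS2, at 11613 to 11671, encodes mt-Ser-GCT, which decodes AGY serine codons and lacks a D arm. It had levels of 12657, 16322 and 14076 and of 46683, 73066 and 44969 (log2 fold change 1.98, SE 0.29, adjusted p = 0.0069). The third gene of that cluster, TrnL2 for mt-Leu-TAG (11671 to 11741), had 1 to 5 reads per high fat diet library and 11 to 21 per SalB library, too few to test. Among the rest, mt-Gly-TCC rose from 307, 472 and 514 to 1253, 1275 and 1754 (1.74, SE 0.30, adjusted p = 0.0103). The fourth, mt-Ile-GAT, had levels of 102, 67.4 and 89.4 and of 244, 381 and 268, on 6, 2 and 4 reads and 14, 32 and 11 reads. It reached the filter in SalB libraries alone, so its call is no support for a difference.

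These 4 groups of levels do not overlap. The other 6 tested tRNAs of the heavy strand promoters had log2 fold changes from 0.29 to 1.96 and did not pass. Among them, mt-Val-TAC was counted almost wholly from reads past the end of the tRNA. The 4 tested tRNAs of the other strand ran from -0.36 to 0.25, with 2 of 4 above 0, and none passed. Without high fat diet replicate 1 the calls of mt-Ser-GCT and mt-Gly-TCC ended (adjusted p = 0.0659 each). The call of mt-His-GTG held under all 15 alternatives run, with a log2 fold change from 3.64 to 4.16.

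**Figure D3:**
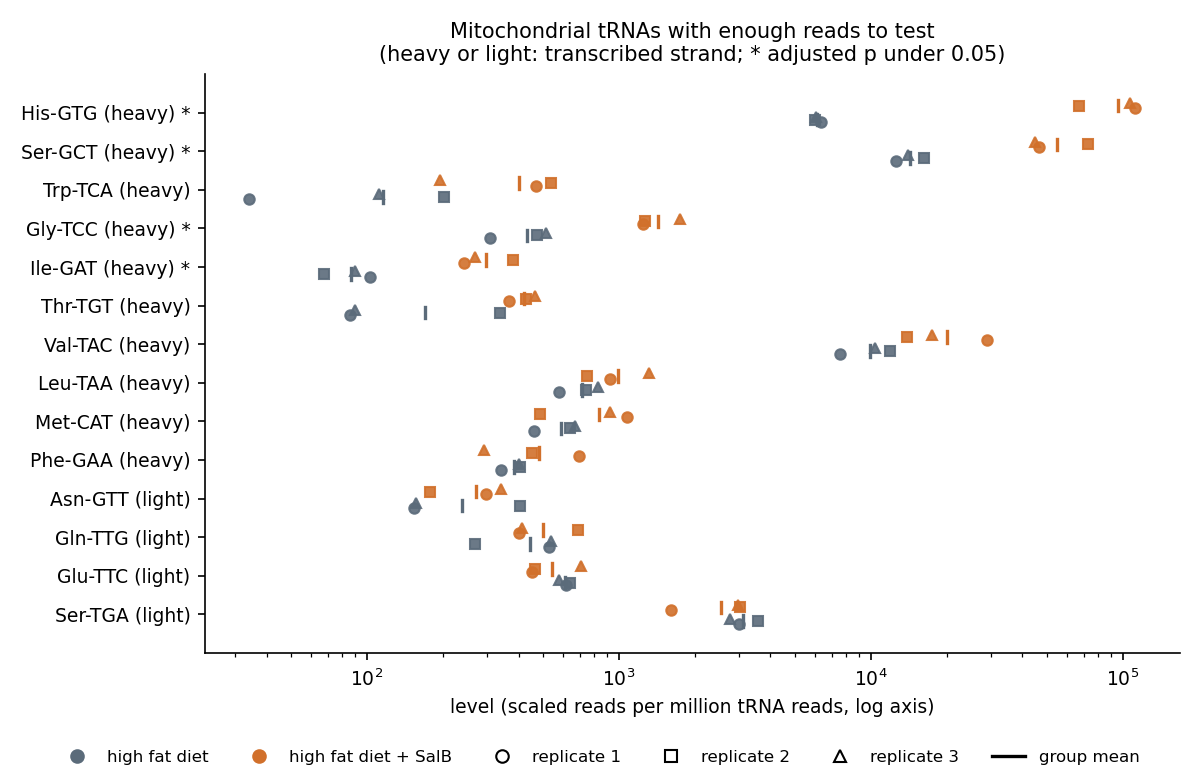
Level of each of the 14 tested mitochondrial tRNAs (horizontal log axis, scaled reads per 1000000 tRNA reads) in each library, ordered by log2 fold change within heavy and light strand; slate is high fat diet, orange with SalB, symbols are replicates, short bars are group means and a star marks an adjusted p under 0.05. His-GTG stands from 6003 to 6371 on the diet alone and from 67094 to 112494 with SalB, and the light strand tRNAs at the bottom overlap between the groups.

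The mt-His-GTG reads differed in form as well as in amount. On the diet alone 46.6%, 50.6% and 47.4% of them reached the tail, and with SalB 94.7%, 88.0% and 93.3% did. Almost all of those began at base 32 in every library, which is the T of the anticodon GTG. Among reads that began there, the share ending at base 71, the final A of the CCA, was 34.2%, 25.9% and 28.4% on the diet alone and 82.0%, 77.0% and 69.2% with SalB. The share that stopped at base 68, before the tail, was 19.7%, 12.2% and 16.8% against 0.818%, 1.06% and 1.82%. No library of 1 group fell within the range of the other for either share, which were computed after the values were seen and have no test. The fragment of bases 32 to 71 rose from 982, 599.7 and 727 to 56211, 40067 and 44561 (log2 fold change 5.91, SE 0.31, limma-voom adjusted p = 3.2e-06), the smallest p of all fragments. Its CC-ended form, 1 base shorter, rose by 4.25 (SE 0.41, adjusted p = 0.000275), and the form without a tail stood at 451, 389.8 and 444 and at 408, 355 and 1014 (0.26, SE 0.45, adjusted p = 0.66). At 40 bases the fragment has the length of the longest reads in the files. A read of 40 bases from base 32 ends exactly at the tail, so the length limit does not cut it short at its 3′ end. The limit does bar an earlier start: a read that ends at base 71 cannot begin before base 32. The shared start therefore does not by itself place a cut, and longer pieces could not be seen.

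Reads of mt-Ser-GCT were nearly all 5′ fragments, at 95.1% to 96.6% in every library. The share of its 5′ reads ending at base 19 was 7.38%, 10.2% and 6.80% on the diet alone and 21.2%, 24.5% and 18.6% with SalB, while base 20 took 14.3%, 12.1% and 13.4% against 4.29%, 5.15% and 4.95%. The fragment of bases 1 to 19 rose from 434, 689.7 and 545 to 6435, 15503 and 5544 (log2 fold change 3.93, SE 0.47, limma-voom adjusted p = 0.000402). All 3 SalB libraries lay above all high fat diet libraries, and SalB replicate 2 was the highest. Trailers of mt-Val-TAC, here reads on its precursor past the tRNA, began at the first base past it in at least 99.7% per library. They were 419 of 442, 347 of 355 and 454 of 466 mt-Val-TAC reads on the diet alone. With SalB they were 1630 of 1663, 1122 of 1168 and 695 of 717. The gene, TrnV, ends at base 1093 and the next tRNA gene, TrnL1, starts at base 2676. Nearly all of these reads hold no base of the tRNA, so sums for mt-Val-TAC mostly count RNA past it. Whether these reads come from a cut trailer or from the RNA encoded between these genes was not tested. Of 11 such fragments tested, 7 rose and 0 fell (3 and 0 on total reads). The most abundant went from 692, 1409 and 1211 to 5459.8, 3222 and 2453 (1.74, SE 0.41, adjusted p = 0.0107).

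Among nuclear tRNAs 2 long pieces that start in the anticodon arm, chosen after their values were seen, were rare and had nearly all their reads with SalB. Both reached the filter in SalB libraries alone, so they had to differ and are given with no test. For the Phe-GAA piece of bases 38 to 76 there were 1, 0 and 1 reads on the diet alone and 26, 28 and 19 with SalB. The ratio of scaled reads was 31.8, with a 95% exact counting interval from 8.49 to 268. For the Trp-CCA piece of bases 38 to 69, which stops short of the tail, the reads were 0, 0 and 2 against 121, 29 and 22, a ratio of 74.9 (20.4 to 624). Such intervals cover counting error only. Summed over all its fragments, Phe-GAA and mt-His-GTG were the 2 of 19 families whose call held under all 15 alternatives. Phe-GAA had levels of 598, 405 and 447 on the diet alone and of 1915, 1979 and 1876 with SalB (1.94, SE 0.23, adjusted p = 0.0025). Over all nuclear tRNAs, reads of at least 28 bases that began at bases 31 to 40 held 0.541%, 0.596% and 0.471% against 1.84%, 0.606% and 0.987%. For mitochondrial tRNAs the shares were 0.606%, 0.617% and 0.604% against 10.6%, 5.96% and 11.1%. With SalB nearly all of this share was mt-His-GTG.

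Trailers are the pieces that RNase Z cuts from the 3′ side of a precursor. Of 37 tested nuclear trailers 19 rose (51.4%) and 1 fell (2.70%), beside 18.5% and 18.9% over all fragments. On total reads 13 trailers rose and 1 fell. Among the 34 at the filter level in both groups 17 rose and 0 fell (median 1.48 on the log2 scale), beside 76 and 74 of 554 over all fragments. The class is largely 1 tRNA: 27 of the 37 are Arg-ACG, of which 18 rose and 0 fell. Of the 5 His-GTG trailers 1 rose, of the 4 Ser-GCT trailers 1 fell, and the Ala-TGC trailer did not pass. Arg-ACG trailers held 70.6%, 69.8% and 73.4% of nuclear trailer reads on the diet alone and 83.3%, 86.6% and 84.5% with SalB. As a share of all reads they went from 2.84%, 3.14% and 3.15% to 12.2%, 7.77% and 8.06%.

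Nearly every Arg-ACG trailer read, at least 99.7% in each library, began at the first base past the tRNA. The 22-base form had levels of 6774, 8276 and 7953 on the diet alone and 41303, 27578 and 24274 with SalB (log2 fold change 1.99, SE 0.29, limma-voom adjusted p = 0.00134). The form longer by 1 T rose from 1223, 1439 and 1756 to 13969, 10818 and 10497 (3.00, SE 0.30, adjusted p = 0.000275). Both calls held under all 15 alternatives. The 3′ fragments of mature Arg-ACG fell over the same libraries, from 8304, 10184 and 10725 to 3800, 5763 and 3225 (-1.23, SE 0.32, adjusted p = 0.0252), a sum whose call ended without high fat diet replicate 1, 2 or 3 or SalB replicate 1 or 3 (adjusted p = 0.0641, 0.0866, 0.0976, 0.0517 and 0.0793). Of all 165 sums of 1 origin within 1 family that were tested, 33 passed (20%), 13 higher (7.88%) and 20 lower (12.1%). The sum of Arg-ACG trailers (1.71, SE 0.30, adjusted p = 0.00732) was 1 of the 8 that held under all alternatives.

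Among nuclear 3′ fragments those that passed were nearly all lower. Of 205 tested 73 fell (35.6%), 2 rose (0.976%) and 130 did not pass, beside 18.9% lower and 18.5% higher over all fragments. On total reads 98 of these fragments fell and 1 rose. High fat diet libraries alone reached the filter for 43 of the 205, of which 29 fell, and SalB libraries alone for the 2 that rose. Among the 160 at that level in both groups 44 fell and 0 rose (median -0.67 on the log2 scale), beside 74 lower and 76 higher of 554 over all fragments. The calls were spread over families, in counts that include those 29, since none was made without them. Of 32 families with a tested 3′ fragment, 21 had at least 1 that fell and 26 had a median below 0. By family, 10 of 17 Ala-CGC/Ala-TGC, 10 of 18 Tyr-GTA, 7 of 11 Gln-CTG, 8 of 18 Ala-AGC and 8 of 21 Gly-CCC/Gly-GCC fragments fell and 0 of them rose. Of 5 Ser-GCT fragments 0 fell, and of 5 His-GTG fragments 0 fell and 1 rose. Those 2 families had medians of 0.40 and 0.47, and with the Phe-GAA piece above, the His-GTG variant with A75G made up the 2 that rose.

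The Ala-AGC fragment of bases 58 to 75 fell from 7032, 5338 and 4743 to 620.4, 266 and 708 (log2 fold change -3.53, SE 0.41, limma-voom adjusted p = 0.000396). Every high fat diet library lay far above every SalB library. The Tyr-GTA fragment of bases 60 to 76 went from 7837, 5937 and 6519 to 372, 2025 and 259 (-3.46, SE 0.60, adjusted p = 0.00286), with SalB replicate 2 the nearest to the other group. The Ala-CGC/Ala-TGC fragment fell from 15754, 13344 and 13584 to 3829, 2823 and 5709 (-1.87, SE 0.31, adjusted p = 0.00226). The Gln-CTG fragment fell from 8496, 8366 and 8679 to 2978, 3429 and 2571 (-1.51, SE 0.27, adjusted p = 0.00341). These 4 calls held under every alternative in which they could be tested, and none of the 4 overlapped between the groups. The Leu-AAG/Leu-TAG fragment of bases 69 to 85 fell by 1.59 on the log2 scale (SE 0.38, adjusted p = 0.0108), whereas the form that starts 1 base earlier stood at 9301, 9416 and 8195 and at 7676, 4611 and 4364 and did not pass (-0.73, SE 0.30, adjusted p = 0.0811). That form passed on total reads (0.0365), with no filter (0.0496), with the stricter filter (0.0415) and without SalB replicate 1 (0.0384), so the contrast of the 2 forms depends on the setting. Initiator Met, whose tRNA serves only the start codon, had 1 of 7 fragments higher and 0 lower (median 0.37).

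Tails also differed. Among nuclear 3′ reads the complete CCA closed 83.5%, 84.9% and 85.9% on the diet alone and 80.1%, 75.8% and 81.3% with SalB, CC closed 12.7% to 15.1% against 16.5% to 20.6%, and C alone 1.32% to 1.40% against 2.24% to 3.46%. The groups did not overlap for any of these shares (exact permutation p = 0.1 each, as low as the design allows). In mt-His-GTG, by contrast, reads from base 32 reached the final A more often with SalB. That share is over all reads from base 32, also those that stop before the tail, so it is not the same measure.

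The T loop holds an A at position 58 of the standard numbering that many tRNAs carry as 1-methyladenosine, a mark known to make reverse transcriptase misread or stop. Of nuclear 3′ reads over that A, 20.0%, 21.7% and 15.9% showed another base on the diet alone and 3.77%, 5.46% and 7.48% with SalB (19.2 ± 2.98% and 5.57 ± 1.86%, n = 3 each, exact permutation p = 0.1, over 4533 to 10183 reads per library). The highest SalB library lay below the lowest high fat diet library. By family, the share was lower with SalB in 12 of the 15 families with at least 50 reads over the A in every library, and without overlap in 8. All 5 families above 5% on the diet alone were among those 8. They were picked by the same diet values that are compared, so this adds no support. Besides Tyr-GTA they were all glycine families: Gly-CCC, Gly-GCC, the joint Gly-CCC/Gly-GCC of reads shared by those, and Gly-TCC. Gly-CCC went from 63.6%, 68.8% and 51.4% to 25.3%, 25% and 37.3%. Gly-GCC went from 40.4%, 43.2% and 34.9% to 8.05%, 7.21% and 15.6%, and Tyr-GTA from 20.1%, 18.8% and 16.1% to 2.20%, 14.3% and 5.26%. The rest of the 8 were Ala-AGC, Ser-GCT and Thr-AGT, with means under 5% in both groups.

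The Gly-CCC/Gly-GCC pair differs at that base alone. The form with A56T fell from 15560.4, 20781 and 16147 to 2393, 1641 and 2784 (log2 fold change -2.96, SE 0.30, limma-voom adjusted p = 0.000275) and held under the 13 alternatives in which it could be tested. The form with the A went from 21884, 30887 and 29489 to 19907, 13287 and 14201 (-0.80, SE 0.27, adjusted p = 0.0394). That call ended with relative log expression (RLE) factors (0.0649), on reads without mismatch (0.0875) and with the replicate number as a block (0.114). It also ended without high fat diet replicate 2 or 3 or SalB replicate 2 or 3 (0.0978, 0.149, 0.0758 and 0.0505).

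Reads that start just past the A differed as well, in both directions. Of each family's 3′ reads, the share starting 1 base after it was 37.2%, 34.1% and 33.3% against 8.55%, 6.13% and 11.02% for Ala-AGC, and 48.9%, 44.6% and 45.8% against 34.5%, 29.7% and 33.3% for Ala-CGC/Ala-TGC. It was lower in 10 of 15 families, in 6 of them without overlap. It was higher without overlap in Gly-CCC, at 14.6%, 12.2% and 14.7% against 26.9%, 29.6% and 20.3%, in Gly-CCC/Gly-GCC, at means of 1.23% against 2.46%, and in Gly-TCC, at means of 2.01% against 4.79%. Over all nuclear 3′ reads the share overlapped (24.8% to 28.4% against 21.3% to 26.1%). Mismatches at the last base of a read held 18.3% to 20.1% of mature reads against 17.2% to 28.3%, and their part in these results was not tested.

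**Figure D4:**
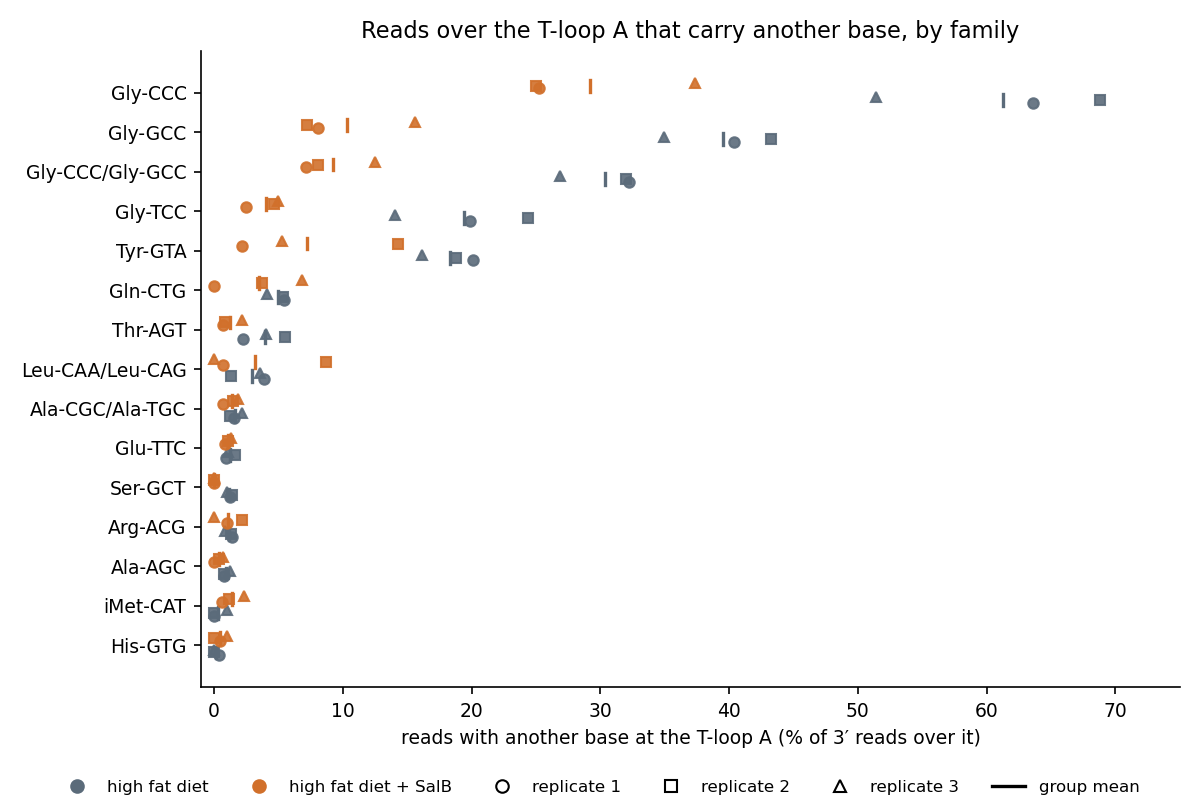
Share of 3′ reads over the T-loop A that carry another base (horizontal axis, %) in each library for the 15 families with at least 50 such reads per library; slate is high fat diet, orange with SalB, symbols are replicates, short bars are group means. The 5 families at the top, Tyr-GTA and glycine families picked as above 5% on the diet alone, are lower with SalB without overlap. Most of the others stay near 0 in both groups.

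Nuclear 5′ fragments moved both ways. Of 116 tested 21 rose (18.1%) and 16 fell (13.8%), near the 18.5% and 18.9% over all fragments, and on total reads 22 rose and 25 fell. Among the 92 at the filter level in both groups 7 rose and 11 fell, beside 76 and 74 of 554 over all fragments. By length, 10 of 29 of 14 to 24 bases rose and 5 fell, 5 of 10 of 25 to 27 bases rose and 0 fell, and 4 of 73 of 28 to 36 bases rose and 11 fell (6 and 18 on total reads). Of the 29 of 14 to 24 bases, 8 reached the filter in SalB libraries alone, and all 8 rose. Among the 17 of that length at the filter level in both groups 2 rose and 3 fell. Of 28 to 36 bases, 2 of the 65 at that level rose and 8 fell. No such count was made for 25 to 27 bases. Among the 108 that come from the tRNAs known for 5′ fragments in serum, 21 rose and 15 fell, and 7 and 11 of the 86 at the filter level in both groups.

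Gly-GCC 5′ fragments overlapped between the groups in amount, at 7.65%, 3.93% and 9.08% of reads against 7.29%, 8.30% and 6.39%, but ended at other bases. Among its 5′ reads, those ending at base 31 made up 41.0%, 31.1% and 38.5% on the diet alone and 13.7%, 20.9% and 16.7% with SalB. Those ending at base 33 made up 22.2%, 15.3% and 20.1% against 6.01%, 3.20% and 5.77%. Those ending at base 25 made up 0.778%, 1.53% and 0.670% against 7.73%, 12.2% and 3.24%, and those ending at base 30 made up 3.98%, 4.42% and 4.09% against 4.84%, 10.1% and 17.1%. None of these 4 shares overlapped. The fragment of bases 1 to 25 had levels of 129, 149.9 and 141 and of 3474, 9887 and 1062, without overlap. It reached the filter in SalB libraries alone, so it had to differ and is given with no test. The piece of bases 1 to 33 fell from 7676, 2459 and 9345 to 1949.9, 1744 and 1486 (log2 fold change -1.75, SE 0.49, limma-voom adjusted p = 0.0193), a call that ended without high fat diet replicate 1 or 3 or SalB replicate 1 or 3 (0.0834, 0.0744, 0.0527 and 0.0599). The most abundant piece, of bases 1 to 31, stood at 9767, 3119 and 11162 and at 3811, 14691 and 3939, with SalB replicate 2 above all others, and did not pass (-0.22, SE 0.60, adjusted p = 0.788).

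Ends of other 5′ fragments differed too. Asp-GTC 5′ reads ended at base 34 in 17.5%, 22.1% and 16.3% against 8.22%, 10.2% and 11.9%, and at base 24 in 1.53%, 1.15% and 1.66% against 8.22%, 6.25% and 6.10%. Glu-CTC ended at base 34 in 8.33%, 12.98% and 8% against 4.70%, 0.715% and 2.82%, and at base 29 in 2.38%, 3.05% and 1.43% against 5.42%, 17.1% and 7.06%. The Glu-CTC fragment of bases 1 to 26 rose from 145, 239.9 and 141 to 674, 2586 and 543 (log2 fold change 2.55, SE 0.69, limma-voom adjusted p = 0.0171), and the call ended without high fat diet replicate 1 or 2 (0.0783 and 0.0673). These shares of ends were chosen after the values were seen and have no test.

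**Figure D5:**
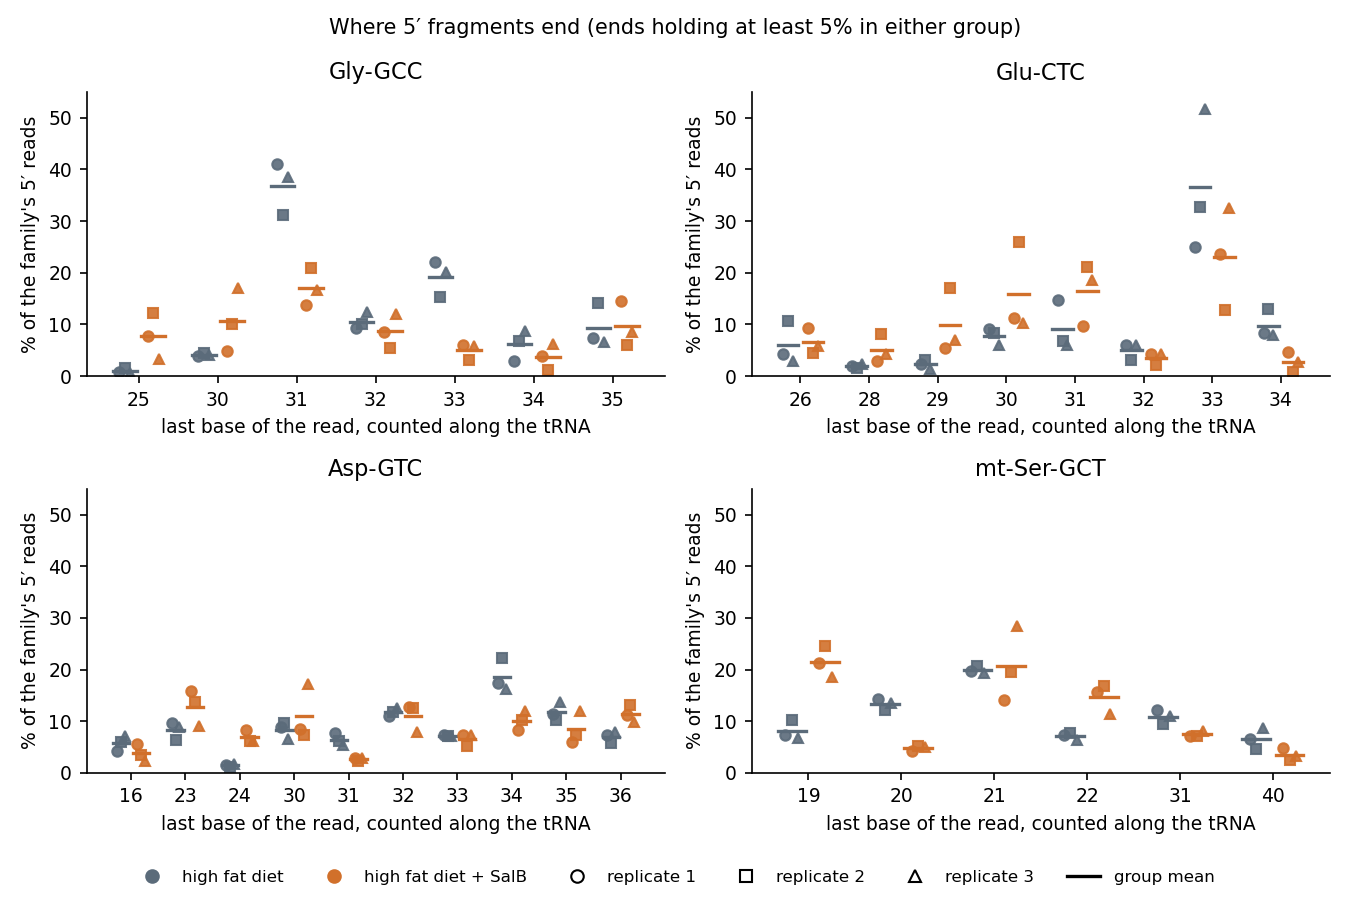
Share of a family's 5′ reads (vertical axis, %) that end at each base of the tRNA (horizontal axis), for ends holding at least 5% in either group, in Gly-GCC, Glu-CTC, Asp-GTC and mt-Ser-GCT; slate is high fat diet, orange with SalB, symbols are replicates and bars are group means. In Gly-GCC bases 31 and 33 are lower and bases 25 and 30 higher in every SalB library, and in mt-Ser-GCT base 19 is higher and base 20 lower.

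Val 5′ fragments split by length and library. The 15-base piece shared by Gly-ACC, Val-AAC and Val-CAC fell from 6919, 5008 and 6822 to 1028, 1079 and 967 (log2 fold change -2.60, SE 0.30, limma-voom adjusted p = 0.000396). The 3 SalB libraries were close to each other and far below the high fat diet libraries. The 23-base piece of Val-AAC/Val-CAC stood at 740.2, 599.7 and 606 and at 674, 28273 and 118, so its level with SalB rests on SalB replicate 2, and it did not pass (1.11, SE 1.55, adjusted p = 0.586). Without that library its log2 fold change was -1.06 (adjusted p = 0.186).

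Internal fragments, which reach neither end, were divided: of 267 nuclear ones 43 rose (16.1%) and 39 fell (14.6%), both under the shares over all fragments (18.5% and 18.9%), and on total reads 27 rose and 53 fell. Among the 219 at the filter level in both groups 27 rose and 18 fell, beside 76 and 74 of 554 over all fragments. The His-GTG fragment of bases 17 to 33 fell from 2301, 1709 and 1857 to 177, 251 and 283 (log2 fold change -3.04, SE 0.36, limma-voom adjusted p = 0.000402). The Asp-GTC fragment of bases 31 to 53, across the anticodon, rose from 354, 299.9 and 161 to 1507, 842 and 873 (1.97, SE 0.44, adjusted p = 0.00836). Neither overlapped between the groups and both held under the 14 alternatives in which they could be tested. The Lys-CTT fragment of bases 16 to 31 rose from 1207, 509.8 and 1069.8 to 2996, 5527 and 1864 (1.83, SE 0.48, adjusted p = 0.0154), and its call ended without high fat diet replicate 2 (0.0675).

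Sums of 1 origin within 1 family showed which ends carried these changes. Of the 33 that passed, the 8 that held under every alternative in which they could be tested were the 3′ sum of mt-His-GTG and the 5′ sum of mt-Ser-GCT, the Arg-ACG trailers, and, all lower, the 3′ sums of Gln-CTG, Ala-CGC/Ala-TGC, Lys-CTT and Phe-GAA/Ser-GGA and the 5′ sum of Gly-ACC/Val-AAC/Val-CAC. Lys-CTT 3′ fragments fell from 2174, 2220 and 2356 to 875, 879 and 711 (log2 fold change -1.44, SE 0.28, limma-voom adjusted p = 0.0115), close together within each group. Fragments that Phe-GAA shares with Ser-GGA moved apart: their 3′ sum fell from 2294, 2122 and 2333 to 1062, 251 and 498 (-2.17, SE 0.47, adjusted p = 0.0128) and their internal sum rose from 308, 457 and 359 to 1323, 1301 and 1304 (1.82, SE 0.32, adjusted p = 0.00732). Internal fragments of Trp-CCA, among them the long piece above, rose from 1010, 1110 and 718 to 12760.0, 3081 and 3817 (2.47, SE 0.53, adjusted p = 0.0128). The calls of both internal sums ended without high fat diet replicate 1 (0.0519 each) or 3 (0.0502 each).

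Within families the fragments often moved apart. Of 33 families with at least 5 tested fragments, 11 had members that rose and members that fell, 6 had only members that rose, 15 only members that fell and 1 none that passed. Gly-GCC had 28 higher and 12 lower of 108, Arg-ACG 18 and 4 of 36, Lys-CTT 8 and 5 of 48, and His-GTG 6 and 5 of 34. Tyr-GTA had 0 and 10 of 19 and Ala-CGC/Ala-TGC 0 and 10 of 17. These counts include fragments that reached the filter in 1 group alone and so had to differ. Over all families such fragments were 52 of the 128 higher and 57 of the 131 lower. Counts within families were not made without them.

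As a whole, Ala-CGC/Ala-TGC fell from 46307, 46132 and 46405 to 17824, 12646 and 24994 (log2 fold change -1.45, SE 0.25, limma-voom adjusted p = 0.0103). Tyr-GTA fell from 33035, 29473 and 27816 to 4021, 17092 and 5895 (-1.97, SE 0.47, adjusted p = 0.0289), and Arg-ACG rose from 37903, 43029.8 and 44193 to 134965, 91743 and 84799 (1.31, SE 0.23, adjusted p = 0.0103). The other families that fell were Arg-CCG/Arg-CCT, Gly-CCC, Gly-CCC/Gly-GCC, Gly-CCC/Gly-GCC/Gly-TCC, Gln-CTG, Leu-AAG/Leu-TAG, Pro-TGG, Pro-AGG/Pro-CGG/Pro-TGG and Ala-AGC, from -0.72 to -1.73 on the log2 scale. The -1.73 is Arg-CCG/Arg-CCT, which stood at -0.56 on reads without mismatch (adjusted p = 0.449). Ile-TAT (1.12) and Leu-CAA (0.88) rose. None of the 19 overlapped between the groups, as was so for 52.5% of all families tested. Most calls needed all libraries of the diet alone: without high fat diet replicate 1, 2 or 3, 2, 6 and 5 of the 19 were kept, against 18, 17 and 12 without SalB replicate 1, 2 or 3. The adjusted p of Ala-CGC/Ala-TGC without high fat diet replicate 1 was 0.0659. That of Tyr-GTA was 0.117, 0.0742 and 0.0809 without high fat diet replicates 1, 2 and 3 and 0.0941 without SalB replicate 3. That of Arg-ACG was 0.0896, 0.0501 and 0.0574 without high fat diet replicates 1, 2 and 3. With the replicate number as a block the adjusted p was 0.0625 for Ala-CGC/Ala-TGC, 0.0964 for Tyr-GTA and 0.0625 for Arg-ACG.

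Grouped by known features of the tRNA, 24 of 83 fragments of tRNAs with queuosine at the wobble base (His, Asn, Asp and Tyr) fell (28.9%) and 8 rose (9.64%), beside 18.9% and 18.5% over all fragments. On total reads 33 fell and 5 rose. Of the 24 that fell, 10 were 3′ fragments of Tyr-GTA, which lie past the wobble base. Asp-GTC had 9 that fell and 2 that rose, and His-GTG 5 and 6. Of 136 fragments of tRNAs with inosine at the wobble base 35 fell (25.7%) and 21 rose (15.4%), and on total reads 49 fell and 13 rose. Of the 21 that rose, 18 were Arg-ACG trailers, which do not hold that base. Both groupings thus partly repeat the 3′ and trailer classes above. Of 48 of tRNAs with a long variable arm, Leu and Ser, 7 fell (14.6%) and 2 rose (4.17%), both under the shares over all fragments, and on total reads 11 fell and 1 rose. Of 31 fragments of tRNAs whose genes hold an intron 11 fell (35.5%) and 2 rose (6.45%), and these were 15 and 2 on total reads and 19 and 1 without SalB replicate 2. Tyr-GTA alone had 10 that fell. Among fragments at the filter level in both groups, 12 of 62 with queuosine fell and 4 rose, and 18 of 106 with inosine fell and 17 rose. With an intron 5 of 21 fell and 1 rose. Over all fragments at that level 74 of 554 fell and 76 rose.

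A precursor fragment of Ile-TAT was a microRNA sequence. Bases 122 to 142 of that precursor match the whole of mmu-miR-1983, which RefSeq places at chr13:21896930-21896950 (GRCm38.p6, minus strand). The reads are shown with the microRNA, whose capitals mark its seed, and beside a second case in which a read placed on Gln-TTG with T35G (capital) equals the start of mmu-miR-378c without a mismatch (chr14:46954905-46954925, minus strand).
Ile-TAT precursor read: ctcacctggagcatgttttct
mmu-miR-1983: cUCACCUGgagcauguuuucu
Gln-TTG read with T35G: actggacttGgagtc
mmu-miR-378c: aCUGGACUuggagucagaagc
The Ile-TAT read had 3, 3 and 4 reads on the diet alone and 13, 54 and 9 with SalB, and levels of 48.3, 90.0 and 80.7 and of 230.4, 798 and 212. It reached the filter in SalB libraries alone and is given with no test. All 3 SalB levels were above the high fat diet levels, with SalB replicate 2 the highest. The Gln-TTG read stood at 933, 779.7 and 646 and at 532, 2926 and 708 and did not pass (0.42, SE 0.59, adjusted p = 0.589). Among Gln-TTG reads over base 35, 63.2% to 84.6% carried T35G on the diet alone and 56.8% to 84.0% with SalB, so most Gln-TTG reads over that base do not match the tRNA exactly.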

How the data were processed

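Serum RNA of 6 libraries, 3 per group, was prepared with TRIzol and a kit for tRNA fragments, with ligated adapters, size selection on a gel and sequencing on an Illumina NextSeq 500, per the labels' protocols. The submitters' processing notes list FastQC, cutadapt, Bowtie, edgeR and build mm10, without versions or roles. The sources used here give no trimming or alignment settings. Each deposited file lists the alignments of 1 library's collapsed reads to mature and precursor tRNA references. The files show reads of 14 to 40 bases on the forward strand with at most 1 mismatch. The count of each sequence stands in its read name, so there is no column of counts, and limma-voom was used in place of a count model.

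Each read was counted once, after the Leu-CAG-3-1 precursor's reads were removed. A fragment is a distinct sequence. Reads that several families share (25.3%) form joint families. Fragments were tested with limma 3.58.1 in R 4.3.3, scaled by trimmed means, if at least 3 of the 6 libraries held the equivalent of 10 reads in a library of median depth (49929 reads) and all together held 15. The same filter kept 80 of 222 families and, of the sums by origin within a family, 165 of 572. Tests were two-sided with Benjamini-Hochberg adjustment at 0.05. Shares were compared by exact permutation over 20 splits. The procedure was tested on simulated counts that had the same spread in both groups. The SalB libraries here agreed less with each other than the high fat diet libraries did. Chi-square per degree of freedom was 8.30 to 20.3 against 2.87 to 3.32. The simulation therefore does not cover that difference in spread.

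Fragments were named by rule: in each direction, the 12 most abundant called fragments without mismatch and without overlap, 1 per family and origin; called families and origin sums (up to 12 per direction by p); the 10 fragments of highest mean level; and, for each of 13 lists, the top 2 by level. Other fragments and shares in the text were chosen after their values were seen. The members, lists and rules were chosen with earlier results of these data known. No 2 libraries of a group agreed within sampling noise (chi-square per degree of freedom 2.87 to 20.3). Depth was 28186 to 90621 reads, with counting error only in intervals. MicroRNA markers of blood cells and liver were not measured, since the references hold tRNAs. MicroRNA sequences and mitochondrial gene positions are from RefSeq (GRCm38.p6). The 3 normal diet libraries were not used here. Alternatives were RLE factors, total reads, no filter, a stricter filter, the precursor kept, reads of 1 family, reads without mismatch, each sequence counted once, limma on log2 values with a pseudocount of 1, the replicate block, and leaving out each library. Calls were also counted among features at the filter level in libraries of both groups, an alternative added after the data were seen.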

Additional observations from a re-analysis of the deposited data

Results flagged for a closer look

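Reads on the Leu-CAG-3-1 precursor, which no comparison above uses, were above the level of the high fat diet libraries in all SalB libraries. They made up 42.0% of tRNA reads in SalB replicate 2, 2.55% in SalB replicate 1 and 0.0573% in SalB replicate 3, against 0.0177% to 0.0234% on the diet alone. The most abundant sequence among them covers bases 137 to 152 of the precursor.
Leu-CAG-3-1 precursor read: gggctggagagatggc
It had 1, 0 and 0 reads on the diet alone and 945, 37242 and 1 with SalB. The same 16 bases occur in 2 microRNA hairpins of RefSeq, Mir3473b and Mir3473e, and in their mature forms, so the read is not particular to this tRNA gene.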

How the results depend on the processing

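Of the 259 fragment calls 0 changed sign under the alternatives in which they were tested; the stricter filter tested 73 of them, reads without mismatch 157, reads of 1 family 194, the precursor kept 237 and the other alternatives 259. Among fragments at the filter level in both groups, an alternative added after the data were seen, 76 were higher and 74 lower. Fragments called higher and lower numbered 427 and 366 of 11317 with no filter, 44 and 43 of 256 with the stricter one, and 73 and 75 of 475 on reads without mismatch. Leaving out 1 library gave 65 to 134 higher and 84 to 131 lower. Families gave 5 higher with no filter, 5 lower with the stricter one and 2 lower on reads without mismatch, and 2 to 14 higher and 0 to 17 lower with 1 library left out. Origin sums gave 12 lower on reads of 1 family and 9 without mismatch, and 3 to 23 higher and 8 to 24 lower with 1 library left out. Same-numbered libraries did not deviate together (correlations -0.13, 0.02 and -0.01), and pairs with unlike numbers ran from -0.06 to 0.09. With 3 libraries per group these values cannot settle whether the numbers pair the samples. With the replicate number as a block, 124 fragments were higher and 111 lower, 4 families higher and 0 lower (limma-voom, 27 families at an unadjusted p under 0.05), and 17 origin sums higher and 16 lower.

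The following did not pass and changed sign. With 1 library left out, mt-Ser-TGA bases 1 to 21 ran from -1.61 to 1.42 on the log2 scale (0.46 with the block), Gly-GCC bases 1 to 31 from -0.89 to 0.18, Val bases 1 to 23 from -1.06 to 2.84, the Gln-TTG read with T35G from -0.35 to 0.94, the mt-His-GTG form without a tail from -0.18 to 0.54 (-0.10 on total reads), and Leu-CAA/Leu-CAG bases 69 to 86 from -1.56 to 0.30. His-GTG bases 54 to 75 stood at -0.10 on total reads. As differences in percentage points, internal reads were -4.44 with the precursor kept, -2.93 on reads of 1 family, -0.28 without mismatch and -2.74 to 2.04 with 1 library left out. Reads of 28 to 36 bases were -2.16, -2.05 (the first 2 of these) and -1.16 to 1.52. Mismatches at other bases were -1.24 on reads of 1 family, -2.93 with each sequence counted once and -0.73 to 0.58 with 1 library left out. The causes were not tested. With 28186 reads, high fat diet replicate 2 sets the limit for rare fragments.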
